A study of Mus musculus with 2 samples.

Results

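The 10 Sox genes Sox4, Sox11 and Sox12 (group C), Sox5 and Sox6 (group D), Sox8, Sox9 and Sox10 (group E) and Sox17 and Sox18 (group F) were examined for islands of the histone deacetylases Hdac1 and Hdac2. They were chosen by name from 21887 annotated protein-coding genes, and all 10 were found in the annotation. The cells were nephron progenitor cells, from which the epithelium of the nephron forms, taken from kidneys of wild-type mice at E16.5 and cultured before they were crosslinked. No strain is given in the sources. Chromatin immunoprecipitation followed by sequencing gave 1 library for Hdac1 and 1 for Hdac2, made with different antibodies and, per the file labels, different antibody amounts.

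An island is a run of mm10 sequence that the authors' software called as enriched over background. It comes with 1 authors' value, a p-value or a q-value, which is used below only to rank islands within its own list, the lowest being the strongest. The Hdac1 list held 30182 islands and the Hdac2 list 20307. With 1 library per antibody there is no replicate error, so no test is given, and read depth is unknown. Of 8 progenitor marker genes, among them Six2, Sall1 and Wt1, 8 carried Hdac1 at a gene end and 7 carried Hdac2, against 60.7% and 31.7% of all protein-coding genes. Markers of the stroma had islands too, with Hdac1 at 5 of 5 and Hdac2 at 3, and of 5 ureteric bud markers 3 had Hdac1 and 1 had Hdac2. Of 5 endothelial markers, Kdr had an Hdac1 island, none had an Hdac2 island, and Pecam1, Cdh5, Tek and Emcn had neither. Islands do not measure expression, and these counts do not set the progenitor markers apart from those of the stroma.

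Sox proteins are transcription factors that bind and bend DNA through a high mobility group box. Group C members Sox4 and Sox11 act in the development of neurons and of several mesenchymal tissues, the kidney among them. The group D proteins Sox5 and Sox6 have no activation domain of their own and work with Sox9 at cartilage genes. In the kidney Sox8 and Sox9 act in branching of the ureteric bud, Sox10 specifies glia and pigment cells from the neural crest, and Sox17 and Sox18 act in blood and lymphatic vessels. Hdac1 and Hdac2 remove acetyl groups from histones as subunits of corepressor complexes, and also occur at active genes.

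For 6 of the genes, RefSeq promoter windows of build GRCm38.p6 (the assembly of mm10) were available, each of 300 bases, from 250 before to 50 after a transcription start. There were 11 such windows, because Sox6 has several annotated starts. They are shown for starts that differed in their islands, 5′ to 3′, with CpG dinucleotides in capitals. The first 3 had islands of both proteins, Sox8 had Hdac1 alone, and the last pair contrasts a Sox6 start that had both with one that had neither.
Sox11, chr12:27342669-27342968, minus strand: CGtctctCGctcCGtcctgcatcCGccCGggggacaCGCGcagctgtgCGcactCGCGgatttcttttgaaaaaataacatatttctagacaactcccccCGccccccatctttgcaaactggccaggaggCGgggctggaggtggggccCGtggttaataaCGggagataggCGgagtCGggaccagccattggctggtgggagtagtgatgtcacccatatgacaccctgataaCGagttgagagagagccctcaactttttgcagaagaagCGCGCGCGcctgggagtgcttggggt
Sox12, chr2:152397997-152398296, minus strand: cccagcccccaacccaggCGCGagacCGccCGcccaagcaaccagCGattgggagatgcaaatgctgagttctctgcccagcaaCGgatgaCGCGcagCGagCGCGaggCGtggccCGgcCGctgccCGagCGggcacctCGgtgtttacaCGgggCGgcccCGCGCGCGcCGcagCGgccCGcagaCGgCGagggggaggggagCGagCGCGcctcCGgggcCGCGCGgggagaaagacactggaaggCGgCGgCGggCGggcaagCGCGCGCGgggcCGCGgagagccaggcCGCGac
Sox4, chr13:28953650-28953949, minus strand: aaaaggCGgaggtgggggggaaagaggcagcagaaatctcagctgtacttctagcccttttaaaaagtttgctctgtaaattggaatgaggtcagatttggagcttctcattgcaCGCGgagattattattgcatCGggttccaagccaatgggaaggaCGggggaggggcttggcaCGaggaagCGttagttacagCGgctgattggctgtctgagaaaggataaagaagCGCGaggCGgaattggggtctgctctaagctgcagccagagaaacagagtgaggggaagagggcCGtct
Sox8, chr17:25570637-25570936, minus strand: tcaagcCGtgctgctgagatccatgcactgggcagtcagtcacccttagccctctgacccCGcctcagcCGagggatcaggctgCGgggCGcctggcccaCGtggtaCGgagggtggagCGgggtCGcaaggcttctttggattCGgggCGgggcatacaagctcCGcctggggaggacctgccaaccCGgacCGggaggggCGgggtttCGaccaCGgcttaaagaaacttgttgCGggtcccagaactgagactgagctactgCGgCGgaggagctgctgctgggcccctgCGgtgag
Sox6 outermost start, chr7:116038695-116038994, minus strand: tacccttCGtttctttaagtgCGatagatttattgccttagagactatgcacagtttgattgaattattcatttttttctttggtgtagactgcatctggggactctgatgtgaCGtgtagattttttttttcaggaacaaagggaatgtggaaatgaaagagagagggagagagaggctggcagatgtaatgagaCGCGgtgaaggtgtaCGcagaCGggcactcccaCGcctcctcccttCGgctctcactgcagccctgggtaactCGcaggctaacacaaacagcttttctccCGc
Sox6 internal start, chr7:115995037-115995336, minus strand: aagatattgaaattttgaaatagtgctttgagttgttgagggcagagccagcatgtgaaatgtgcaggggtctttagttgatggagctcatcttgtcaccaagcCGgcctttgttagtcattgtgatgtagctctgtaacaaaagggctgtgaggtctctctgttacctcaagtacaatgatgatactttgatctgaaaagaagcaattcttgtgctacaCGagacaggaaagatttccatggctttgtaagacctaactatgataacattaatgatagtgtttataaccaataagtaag

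The windows held 2 to 47 CpG, and islands lay at the CpG-richer ones. Sox12 had 47 CpG, more than 98.2% of the 21263 windows of protein-coding genes. Sox11 and Sox8 had 21 each, Sox4 had 12, and the outermost Sox6 start in the table had 11, against a median of 13 over all windows. All of these starts had an Hdac1 island within 1 kb, and all except Sox8 an Hdac2 island. A further Sox6 start, with 13 CpG, also had both, 154 bp from the Hdac1 island and 354 bp from the Hdac2 island. The other 4 Sox6 starts and the only Sox5 start in the table, which lies inside that gene, had 2 to 4 CpG and no island of either protein within 1 kb. In all, 6 of 11 windows had Hdac1 nearby (60.7% of all windows) and 5 had Hdac2 (31.5% of all windows).

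Over all genes, too, islands were more common at windows with more CpG. Among all windows with 0 to 4 CpG, 8.78% had an Hdac1 island within 1 kb and 4.77% an Hdac2 island. With 10 to 19 CpG, the class of the Sox4 start and of both Sox6 starts with islands, the shares were 84.1% and 33.5%. With 20 to 29 CpG they were 97.0% and 50.2%, and with 30 to 67 CpG they were 99.1% and 70.4%. Sox8 and Sox11 have the same CpG number. Of the 2362 windows within 2 CpG of it, 45.2% had an Hdac2 island, so both the Hdac2 island at Sox11 and the lack of one at Sox8 are common among such starts.

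**Figure D1:**
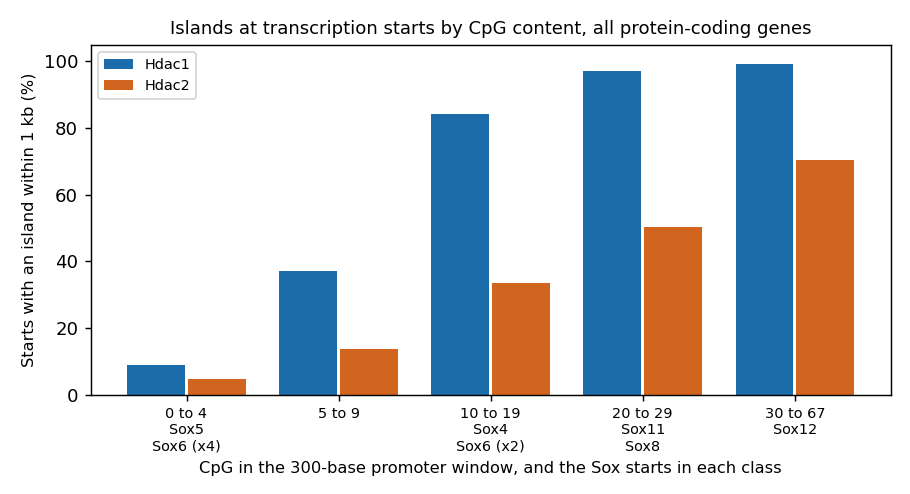
Share of transcription starts of protein-coding genes with an Hdac1 (blue) or Hdac2 (orange) island within 1 kb, in %, by number of CpG in the 300-base promoter window. The Sox starts in each class are named under it, and the 5 Sox windows in the lowest class are those without islands.

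The core sequences bound by Sox proteins were also searched on both strands. ACAAT occurred in 4 of the 11 windows (27.7% of all windows), none of which had an Hdac1 island within 1 kb. ACAAAG occurred in 5 (16.8% of all windows), 2 of them Sox6 starts with islands. The GC-box letters CCGCCC occurred in 4 (46.2% of all windows), at Sox11, Sox12, Sox8 and the Sox6 start with 13 CpG, all 4 with Hdac1. The windows with ACAAT had only 2 to 4 CpG and those with CCGCCC 13 to 47, so matches and CpG number cannot be told apart here. How often windows with each match have islands over all genes was not computed. A match is a run of letters and does not show binding.

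At the ends of the genes, Hdac1 islands were found for every member and Hdac2 islands for 7. A gene end means within 1 kb of where the annotated gene begins or stops. All 10 genes had an Hdac1 island there, as did 60.7% of all protein-coding genes. Sox4, Sox11, Sox12, Sox5, Sox6, Sox9 and Sox18 also had an Hdac2 island there, as did 31.7% of all genes and 50.6% of the genes where Hdac1 was at an end. Sox8, Sox10 and Sox17 had Hdac1 alone. The strongest Hdac1 island at an end had a median width of 3.6 kb over the 10 genes, from 1.0 kb at Sox10 to 8.8 kb at Sox4. The widest end island over all genes with one had a median of 2.4 kb, and at the members the strongest was also the widest. The 7 Hdac2 islands had a median of 4.2 kb, also against 2.4 kb. Of the 10 other Sox genes described below, the 6 with Hdac1 at an end had a median Hdac1 width of 3.9 kb.

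**Figure D2:**
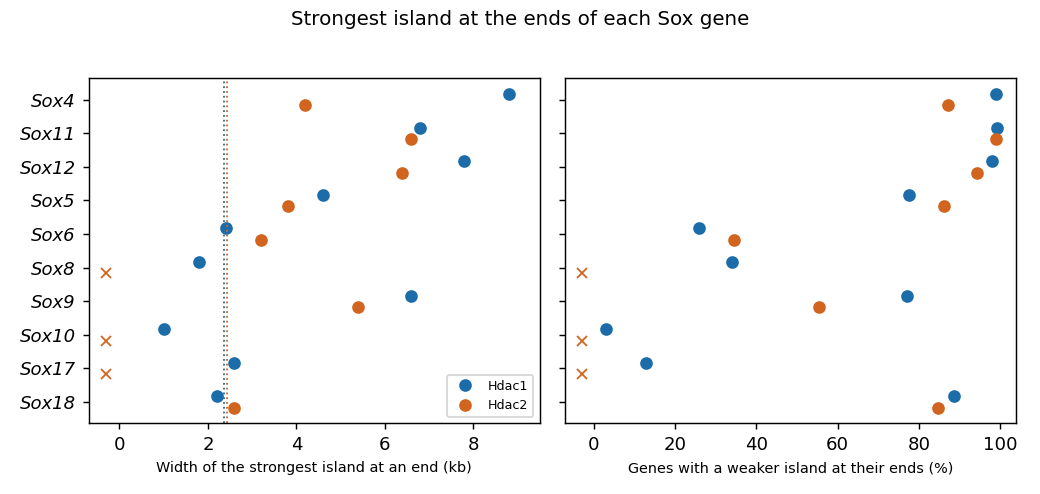
Strongest Hdac1 (blue) and Hdac2 (orange) island at the ends of each Sox gene, with its width in kb on the left and, on the right, the share in % of genes with an island of that protein at an end whose strongest island was weaker. Dotted lines mark the median width of the widest end island over all genes with one. Crosses left of 0 mark the 3 genes without an Hdac2 island at an end. The Hdac1 points of the group C genes lie farthest right in both panels, and that of Sox10 farthest left.

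The group C genes had broad, strong islands of both proteins over most of the gene. Sox11 spans 27334268 to 27342718 on chromosome 12 (8.45 kb). Its Hdac1 island of 6.8 kb, from 27338001 to 27344800, was one of 82 in the list with a value of 0, the lowest the files hold. The Hdac2 island of 6.6 kb, from 27337801 to 27344400, had a value of 2.07e-49 and was stronger than the islands of 99.0% of genes with Hdac2 at an end. The islands shared 6.4 kb, and their edges were 200 bp and 400 bp apart. Both also lay within 1 kb of an end of the noncoding gene Gm30855. Sox11 was the member with the strongest island in both libraries.

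At Sox4, which spans 28948919 to 28953699 on chromosome 13, Hdac1 reached well past Hdac2. Hdac1 had 8.8 kb, from 28945801 to 28954600 (3.89e-270), which covered the whole gene and 3.1 kb beyond its 3′ end. The 4.2 kb of Hdac2, from 28950001 to 28954200 (7.12e-16), covered 77.4% of the gene from the start side, and lay wholly within the Hdac1 island. The Hdac1 island was stronger than that of 98.9% of genes with one, and the Hdac2 island than 87.2%. The noncoding genes Gm46405 and Gm46406 also have ends on the Hdac1 island or within 1 kb of it, so it cannot be assigned to Sox4 alone.

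Sox12, at 152393611 to 152398046 on chromosome 2, had the same arrangement on its gene body. Hdac1 covered all of it with an island of 7.8 kb (152392601 to 152400400, 1.10e-221), and Hdac2 covered 59.6% from the start side with one of 6.4 kb (152395401 to 152401800, 6.94e-22). Upstream of the start the order changed, with Hdac2 reaching 3.8 kb past the gene and Hdac1 2.4 kb. These islands were stronger than those of 97.9% and 94.2% of genes with an island.

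The direction of transcription is known from the promoter windows for Sox4, Sox11, Sox12, Sox5, Sox6 and Sox8. At the start of the gene span all 6 had Hdac1 (58.9% of genes with such a window) and 5 had Hdac2 (30.0%). At the opposite end, Sox4, Sox11 and Sox12 had Hdac1 (10.9% of genes) and none of the 6 had Hdac2 (5.03%). At Sox4 and Sox12 this was the same island that covered the start. At Sox11 the Hdac1 signal at the 3′ end was a separate island of 1.4 kb with a value of 8.93e-08, far weaker than the island over the start.

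In group D the islands at the outer start differed in strength between Sox5 and Sox6. Sox5 (143828425 to 144782287 on chromosome 6, 954 kb) had 4.6 kb of Hdac1 (144780001 to 144784600, 4.84e-90) and 3.8 kb of Hdac2 (144779601 to 144783400, 2.17e-15) over the upper end of the gene, which is its start. They shared 3.4 kb. The Hdac1 island was stronger than that of 77.6% of genes with one, and the Hdac2 island than 86.1%. At Sox6 (115470872 to 116040776 on chromosome 7, 570 kb) the islands over the start were weaker, with 2.4 kb for Hdac1 (7.38e-28) and 3.2 kb for Hdac2 (7.13e-07). The Hdac1 island there was stronger than that of only 25.8% of genes with one, and the Hdac2 island than 34.6%. A stronger pair lay further into the gene, beside the internal start with 13 CpG, with 4.0 kb for Hdac1 (116031201 to 116035200, 2.82e-48) and 3.2 kb for Hdac2 (116031401 to 116034600, 3.36e-16). The noncoding gene Sox6os lies there as well.

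Both long genes held a series of further islands along their spans. Introns and exons are not separated in the annotation used. Sox5 had 10 Hdac1 islands in its span and Hdac2 at 6 of them. Of the 9 that were not at an end, 5 overlapped Hdac2, and 4 of these 5 lay in the last part of the gene, between 143862601 and 143923800. The strongest of them was 0.8 kb wide (2.36e-25) with an Hdac2 island of 1.0 kb (2.70e-13) that began at the same base. A block of 4 Hdac1 islands between 144140801 and 144286400 had no Hdac2. These were stronger than only 2.67% to 51.2% of the Hdac1 list. In Sox6, 8 Hdac1 islands lay in the span and 3 overlapped Hdac2, the pair at the start, the pair at the internal start and one near the 3′ end, at 115509401 to 115512600 (3.2 kb, 1.39e-29). No Hdac2 island lay in the roughly central stretch where Sox6 had 4 Hdac1 islands of 0.8 to 2.6 kb. Over the whole Hdac1 list 39.8% of islands overlapped Hdac2, so an Hdac1 island without Hdac2 was the more common case.

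Long genes offer more room for islands, so Sox5 and Sox6 were set beside the 227 protein-coding genes of 500 kb or more. Of these, 90.7% had an Hdac1 island in the span and 95.6% an Hdac2 island. Sox5 had 1.05 Hdac1 islands per 100 kb and Sox6 1.40, against a median of 0.451. For Hdac2 the numbers were 0.629 and 0.526 against 0.418. By number per 100 kb, both genes were above the median of long genes for both proteins, with an Hdac1 density above that of 76.7% and 83.3% of them. By share of the span under islands, Hdac1 covered 1.67% of Sox5 and 3.54% of Sox6, against a median of 0.669%. For Hdac2 the shares were 0.995% and 1.57% against 1.34%, so by this measure Sox5 was below the median.

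**Figure D3:**
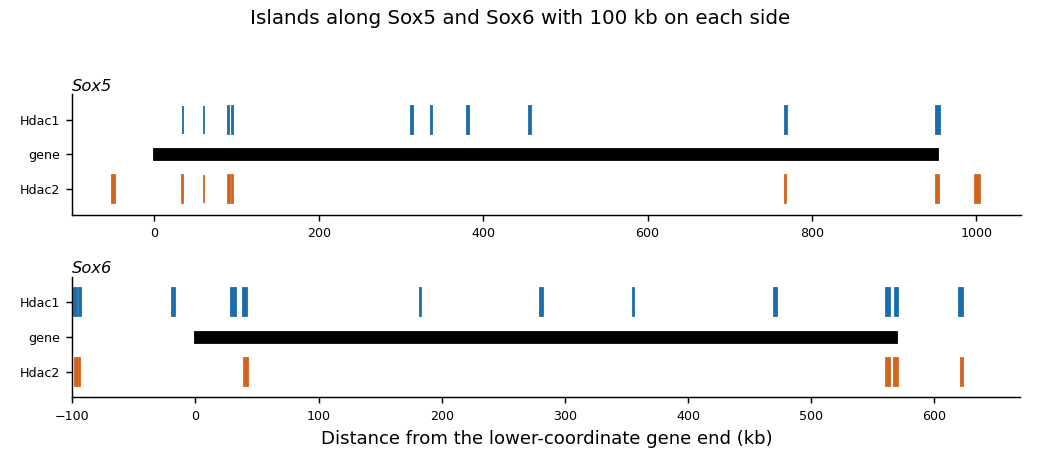
Map of Sox5 and Sox6 (black bars) with 100 kb on each side, with Hdac1 islands (blue) above and Hdac2 islands (orange) below, in kb from the lower-coordinate end. Transcription runs from right to left, so the start is at the right end, where both proteins have an island at each gene.

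The group E genes differed among themselves. Sox9 (112782210 to 112787757 on chromosome 11) had islands of both proteins at both ends, as did Sox18. Hdac1 lay at both ends of 5 of the 10 genes, Sox4, Sox11 and Sox12 being the others (8.95% of all genes). Hdac2 lay at both ends of 2 (3.04%). At Sox4, Sox12 and Sox18 a single Hdac1 island reached both ends, as did a single Hdac2 island at Sox18. These 5 genes are short, at 1.80 to 8.45 kb, against a median of 17.2 kb over all genes. No comparison with genes of like length was made. Over the lower end of Sox9 lay 6.6 kb of Hdac1 (112779201 to 112785800, 2.19e-89) and 5.4 kb of Hdac2 (112779801 to 112785200, 5.09e-09), the latter inside the former by 600 bp on each side. Over the upper end lay weaker islands of 1.8 kb (1.48e-07) and 2.8 kb (0.00150). The Hdac1 island over the lower end was broader than the widest end island of 96.7% of genes with one. By value it was stronger than those of 77.2%.

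Sox8 and Sox10, the other group E members, had short Hdac1 islands and no Hdac2 island in the gene. The Sox8 island measured 1.8 kb (25570001 to 25571800 on chromosome 17, 3.78e-35) and covered the start. It also lay within 1 kb of an end of the noncoding gene Cerox1. The Sox10 island of 1.0 kb (79163401 to 79164400 on chromosome 15, 1.19e-07) lay inside the gene at its upper end. It was the weakest of the 10, stronger than that of 2.96% of genes with an Hdac1 island. The nearest Hdac2 islands were 25.9 kb from Sox8 and 79.1 kb from Sox10.

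The vessel genes of group F also differed. Sox18 is a short gene of 1.80 kb, and both proteins had islands over 90.9% of it that began at the same base, 181670001 on chromosome 2. The Hdac1 island was 2.2 kb wide (2.95e-122) and the Hdac2 island 2.6 kb (9.65e-15), stronger than those of 88.6% and 84.6% of genes with an island. At Sox17 (4490928 to 4497426 on chromosome 1) an Hdac1 island of 2.6 kb, from 4491001 to 4493600, covered 40.0% of the gene beside its lower end (2.65e-16), and no Hdac2 island lay within 100 kb. The nearest was 309.6 kb away, and 85.5% of all genes had one within 100 kb. With the 50% of the Hdac1 list that has the lowest values, the islands of Sox10 and Sox17 were lost and 8 of 10 genes kept one, against 52.6% of all genes with that list.

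Around the genes, 66 Hdac1 islands and 33 Hdac2 islands lay in the gene or within 100 kb of it. All 10 genes had at least 1 Hdac1 island in this window (85.4% of all genes) and 9 had Hdac2. The number ran from 2 at Sox17 to 12 at Sox6 for Hdac1, with a median of 6.5 against 5 over all genes, and from 0 at Sox17 to 8 at Sox5 for Hdac2, with a median of 3.5 against 2. In bases, the median was 14.9 kb for Hdac1 and 9.7 kb for Hdac2, against 9.4 kb and 5.8 kb over all genes. Sox6 had the most under Hdac1 (29.8 kb) and Sox5 the most under Hdac2 (21.2 kb). Each window includes the gene. Those of Sox5 (gene of 954 kb) and Sox6 (570 kb) are thus far longer than those of the 8 members under 10 kb. Neither the counts nor the bases are given per length of window. Sox5 and Sox11 had more sequence under Hdac2 than under Hdac1.

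**Figure D4:**
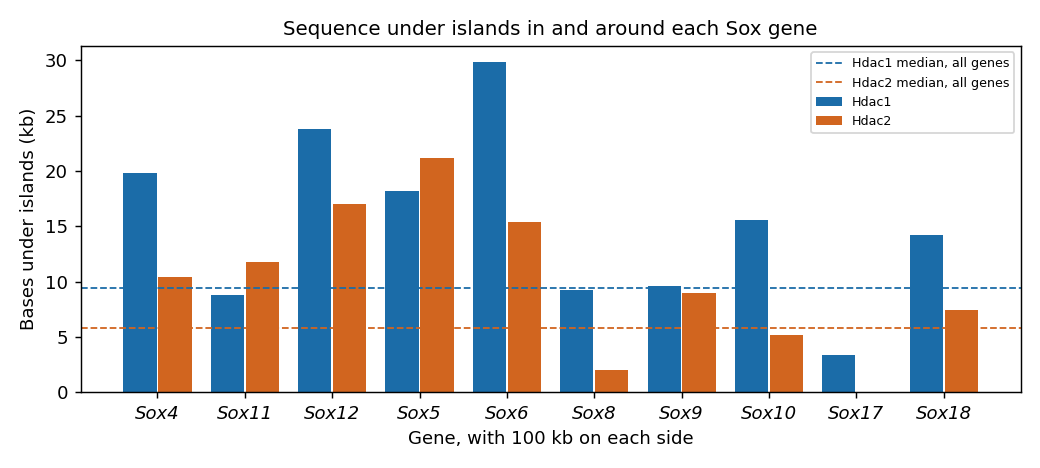
Sequence under Hdac1 (blue) and Hdac2 (orange) islands in each gene and the 100 kb on each side of it, in kb, with dashed lines at the medians over all protein-coding genes (9.4 kb and 5.8 kb). Sox17 has no Hdac2 bar because its window held no Hdac2 island. Windows include the gene and so are longest for Sox5 and Sox6.

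Nearly all Hdac2 islands near the Sox genes lay on Hdac1 islands. Of the 33, 30 overlapped Hdac1 by at least 1 bp (90.9%, 95% Wilson interval 76.4 to 96.9%), compared with 59.4% of the whole list and 68.0% of Hdac2 islands within 100 kb of a protein-coding gene. The 8 at a gene end and the 7 inside a gene all overlapped Hdac1. The 3 without Hdac1 were broad and lay outside the genes, 75.7 kb above Sox11 (5.2 kb), and 47.6 kb below (4.2 kb) and 44.5 kb above Sox5 (6.4 kb). In the other direction, 31 of the 66 Hdac1 islands overlapped Hdac2 (47.0%, interval 35.4 to 58.8%), against 39.8% of the whole list. The intervals cover counting error only, and islands of 1 locus share their surroundings.

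By group, Hdac2 lay on 9 of 17 Hdac1 islands around the group C genes, 12 of 22 in group D, 6 of 18 in group E and 4 of 9 in group F. Over the whole Hdac1 list the share was 39.8%. No test of the difference between groups was made. Of the 31 overlapping pairs, 11 had both edges within 400 bp. The pair 76.4 kb below Sox18, at an end of Zfp512b, had identical edges. How often edges lie this close over all pairs was not computed.

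Some of the surrounding islands lay at the ends of other genes. Of the 38 Hdac1 islands outside the Sox genes, 17 lay within 1 kb of an end of another protein-coding gene, and 6 of these overlapped Hdac2. All of these 17 were around Sox8, Sox10, Sox12 and Sox18. The strongest was 12.6 kb from Sox12, an island of 5.4 kb at Zcchc3 and 6820408C15Rik (7.08e-251), with an Hdac2 island of 5.8 kb (1.32e-14) whose edges were 200 bp away on each side. Around Sox10, 6 of the 8 outside islands were at ends of other genes, such as Micall1 and Polr2f. All 8, at a gene end or not, were stronger than the island in Sox10 itself, which was stronger than only 18.4% of the Hdac1 list.

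Outside the genes, Sox9 and Sox11 each had 1 Hdac1 and 1 Hdac2 island within 100 kb, and Sox4 had 5 and 3. An Hdac1 island of 1.2 kb (4.68e-15) lay 60.6 kb below Sox9, with an Hdac2 island of 0.8 kb (2.59e-10) that began at the same base. This Hdac2 island had a lower value than either Hdac2 island at the ends of Sox9. Near Sox4, an Hdac1 island of 3.4 kb (28956601 to 28960000, 3.59e-82) lay 2.9 kb upstream of the start with an Hdac2 island of 2.2 kb that ended at the same base (5.46e-20). Here too the Hdac2 value was lower than at the gene (7.12e-16). This upstream pair lies at ends of the noncoding genes Gm46405 and Gm52067. At distances of 63.1 kb and 73.9 kb on the other side, a further pair of islands of each protein overlapped.

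Further islands lay around Sox8, Sox10, Sox17 and Sox6. Hdac1 covered 0.8 kb (4.60e-08) 25.7 kb below Sox8, where it overlapped the only Hdac2 island of that window, of 2.0 kb (0.000264), by 0.6 kb. Above it, the Hdac1 island at Lmf1, 7.5 kb away, had a lower value (3.48e-37) than the island at the Sox8 start (3.78e-35). Above Sox10, at 96.5 kb, 1.8 kb of Hdac1 (1.21e-39) and 1.2 kb of Hdac2 (1.49e-09) began at the same base and touched no gene end. This Hdac1 island had a lower value than the one in Sox10. Next to Sox17, an Hdac1 island of 0.8 kb (1.96e-11) at 74.0 kb was the only other island in the window. Around Sox6, 3.0 kb of Hdac1 (1.03e-28), beginning 50.4 kb above the gene, overlapped 1.6 kb of Hdac2 (4.41e-07) at an end of the noncoding gene 1700003G18Rik. Below the gene a single Hdac2 island of 4.0 kb (2.54e-09) bridged 2 Hdac1 islands, of 2.8 kb and 1.8 kb.

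**Figure D5:**
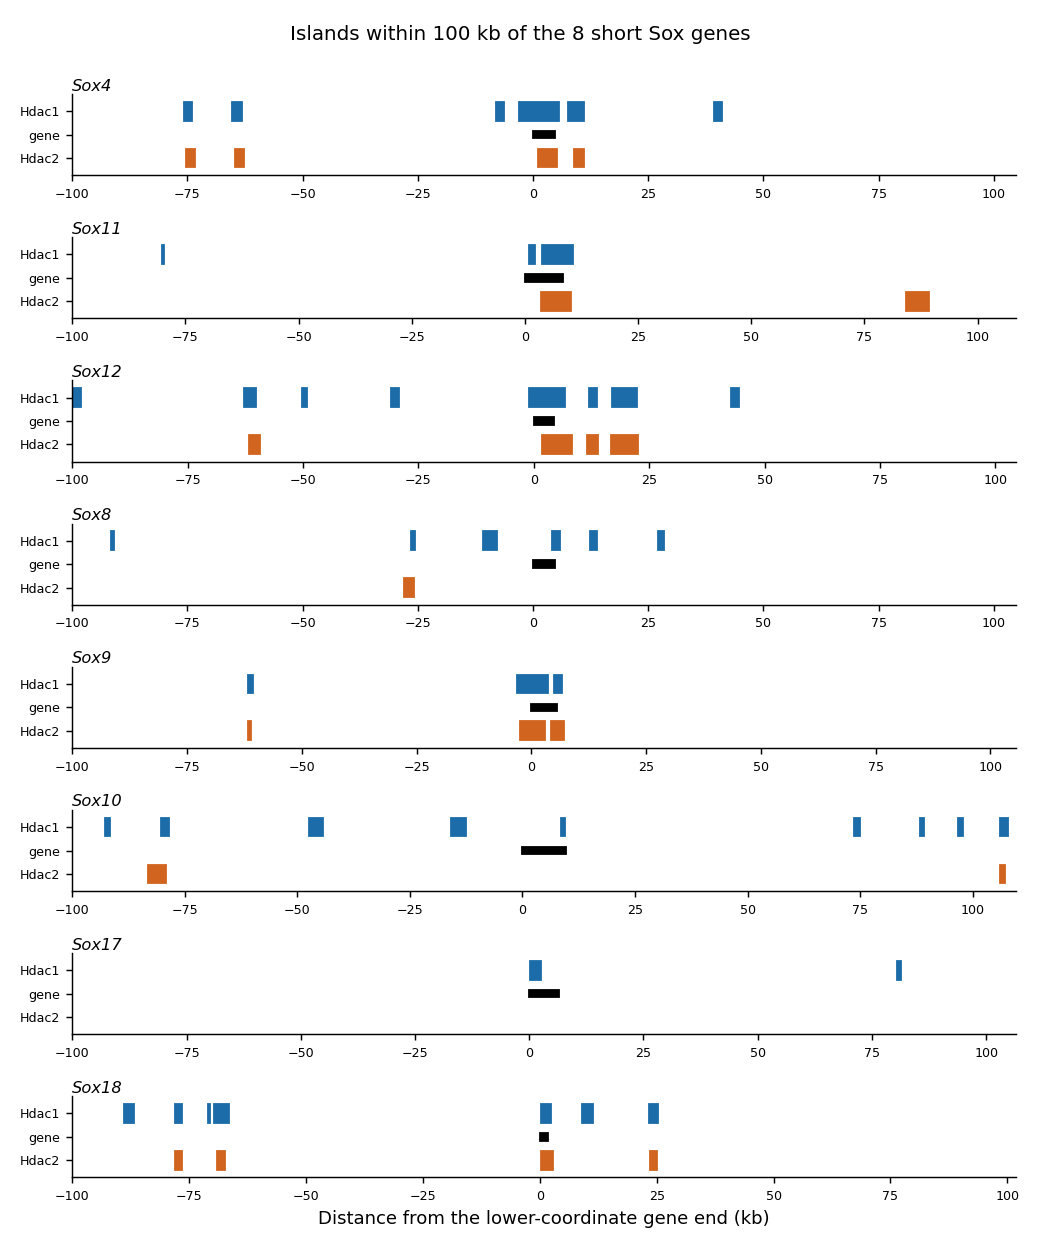
Maps of the 8 short Sox genes (black bars) with 100 kb on each side, with Hdac1 islands (blue) above and Hdac2 islands (orange) below, in kb from the lower-coordinate gene end. Islands of both proteins lie over Sox4, Sox11, Sox12, Sox9 and Sox18, and Hdac1 alone over Sox8, Sox10 and Sox17.

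Another 10 Sox genes belong to other groups or to the rest of groups D and F. At their ends 6 carried Hdac1 and 3 carried Hdac2, close to the 60.7% and 31.7% of all genes. Sox13, Sox21 and Sox30 had both, Sox1, Sox2 and Sox7 had Hdac1 alone, and Sox3, Sox14, Sox15 and Sry had neither. Sox13, the remaining group D gene, had the strongest islands among these (4.6 kb, 6.18e-150 for Hdac1 and 2.2 kb, 1.13e-22 for Hdac2). Sox7, of group F, had 1.2 kb for Hdac1 (3.40e-09). Widths ran from there to 7.0 kb at Sox1 for Hdac1, and from 1.2 kb at Sox30 to 7.8 kb at Sox21 for Hdac2. The median Hdac1 width was 3.9 kb, against 3.6 kb at the members.

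Genes listed as downstream of the Sox proteins, or only as linked to them, were counted in the same way. The shares over all genes were 60.7% with Hdac1 at an end and 31.7% with Hdac2. Of 12 cartilage genes of Sox5, Sox6 and Sox9, 9 had Hdac1 and 1 had Hdac2 (8.33%). That 1 was Col2a1, the type II collagen gene, with 6.8 kb (3.84e-74) and 5.4 kb (1.73e-10), while Acan, the aggrecan gene, had Hdac1 alone (1.8 kb, 3.71e-26). Of 8 genes of Ret signalling in the ureteric bud, which is linked to Sox8 and Sox9, all 8 had Hdac1 and 7 had Hdac2 (87.5%). Spry1 and Dusp6, feedback inhibitors of the pathway, had Hdac1 islands of 20.2 kb and 10.8 kb with a value of 0 and Hdac2 islands of 7.0 kb (1.02e-24) and 13.2 kb (1.30e-29). Etv5 had 4.6 kb (3.20e-129) and 3.2 kb (4.85e-16), and Wnt11 had Hdac1 alone.

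The 12 vessel genes of Sox17 and Sox18 had Hdac1 in 7 cases and Hdac2 in 4, near the shares of all genes. The 4 were Efnb2, Prox1, Flt4 and Dll4, with Efnb2, an arterial ephrin, the strongest (4.0 kb, 3.03e-188 and 3.6 kb, 1.83e-24). Of 10 neural crest and glial genes of group E, 7 had Hdac1 (70.0%) and 4 had Hdac2 (40.0%), also near those shares. The 4 were Erbb3, Mitf, Ednrb and Cnp. Of 8 genes downstream of Sox4 and Sox11, 7 had Hdac1 (87.5%) and 4 had Hdac2. Ncam1 (5.8 kb, 2.36e-229 and 2.4 kb, 3.67e-42), Nrp1, Ezh2 and Tead2 had both, and the neuronal genes Tubb3, Stmn2 and Gap43 had Hdac1 alone. These counts describe short lists and are not tested against other genes.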

How the data were processed

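Chromatin immunoprecipitation of Hdac1 and Hdac2 was sequenced from nephron progenitor cells at E16.5, 1 library each, grouped by sample title. Per the labels' protocols, 500 pg of DNA per library was amplified for 12 cycles and then further. The submitters' processing notes name BWA 0.7.5a, FastQC, SAMtools 1.3.1, SICER and bedtools 2.17, and mm10 as the build. SICER settings, background library and pooling were not given in the sources used here. For each island the authors deposited 1 p-value or q-value, below 0.1 throughout. Which of these it is, is not stated. Island widths were multiples of 200 bp, so edges are coarse.

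Positions were converted to 1-based. Genes came from RefSeq GRCm38.p6, on chromosomes 1 to 19, X and Y. That table has no strand, which was taken from the promoter windows where a gene had one. Overlap meant at least 1 bp. At a gene with several end islands the one with the lowest value is given, and widths over all genes are those of the widest. Intervals are 95% Wilson intervals. The steps were tested on simulated islands. Members and lists were chosen with earlier results of these data known. Named genes are the members, the other Sox genes, and for each downstream list genes with Hdac2 and up to 3 with the strongest islands, with a few further ones named after their values were seen. Genes of like pattern were not ranked, since 2 libraries give no profile. Alternatives were other windows, ends, thresholds, list lengths and overlap rules. Scripts ran in Python 3.11.15 with scipy 1.17.1, pandas 2.3.3, numpy 2.4.6 and, for figures, matplotlib 3.10.9.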

Additional observations from a re-analysis of the deposited data

How the results depend on the processing

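Of 39 alternative counts, shares and covered lengths, 29 were within 1.5 times of the reported value and 10 were not. A distance of 50 kb was within it although it left 45 of 66 Hdac1 and 22 of 33 Hdac2 islands. At the 17 gene and protein combinations with an island at an end, the widest island was also the strongest. Only Sox11 for Hdac1 and Sox9 for both proteins had more than 1 end island, so at the others this holds by definition. No paired analysis was possible because there is 1 library per antibody and no replicate. With the transcription start only, known for 6 of the 10 genes, 6 had Hdac1, and with the opposite end only, 3 had Hdac1 and 0 had Hdac2. For Hdac1 at the start, the 4 genes lost were those without a known strand, and all 6 others kept it. The counts at the opposite end fall only partly for this reason. A distance of 250 kb raised the islands near the genes to 126 for Hdac1 and 65 for Hdac2, and the bases under them to 299.8 kb and 178.8 kb. The 50% of each list with the lowest values left 41 and 18 islands, and 63.2 kb under Hdac2. Under that setting Sox10 and Sox17 lost Hdac1 at their ends and Sox6 lost Hdac2. With the Hdac1 list reduced to the length of the Hdac2 list, Sox10 lost Hdac1. Read depth is unknown, so a missing island may be one that was not detectable.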
